A study of Mus musculus with 14 samples.

Results

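Solute carriers are the membrane transporters that move ions, amino acids, sugars, vitamins and metabolites across plasma and organelle membranes. The genes described here were chosen by name and by abundance. They are the genes of the RNA-seq count table whose symbol begins with Slc, a family number, the letter a and a member number, with at least 50 counts summed over 6 libraries. Slc1a3, Slc2a1, Slc2a3, Slc16a1, Slc16a3, Slc16a7, Slc17a7, Slc17a8, Slc24a1 and Slc24a2 were set aside. Of 24421 genes in the table, 344 matched the name pattern and 189 remained, in 43 families. The pattern does not take symbols such as Slc35b or Slco, so the Slc35 nucleotide sugar transporters enter with 5 genes only. It does take 5 genes whose products are not transporters by name, namely Slc9a3r1, Slc9a3r2, Slc7a6os, Slc2a4rg-ps and Slc4a1ap.

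RNA was measured in 3 libraries of rods, sorted as GFP-positive cells from Nrl-eGFP mice, and in 3 libraries of blue cones, the GFP-positive photoreceptors of Nrl-eGFP mice that also lack Nrl. ATAC-seq libraries, which give open chromatin, came in pairs from rods, from blue cones and, after 1 or 2 rounds of sorting, from the green cones of Opn1mw-GFP mice. All mice were 8 weeks old and of C57BL/6 background, and all carried a GFP transgene. Nrl, the leucine zipper factor that sets the rod fate, is absent throughout life in the blue cones, so these are photoreceptors of a mutant retina and not native cones. Each library pooled cells from the retinas of several mice, and the retinas were dissociated with trypsin before sorting. The labels of the rod and blue cone libraries name Nrl-eGFP and Nrl-eGFP;NrlKO as genotypes. For 1 single-sorted green cone library, the study's own sample sheet names the Nrl-null line instead of the Opn1mw reporter line given by its label, so it enters nothing here beyond its own values and 1 alternative.

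Transporters set the ion gradients that carry the photoreceptor dark current, take back the glutamate that photoreceptors release in darkness, and import the fuel, taurine, creatine and amino acids of a cell with a very high energy demand. Most act as cotransporters or exchangers and draw on gradients built by the sodium-potassium ATPase. Others sit in mitochondria, synaptic vesicles, lysosomes or the Golgi and move substrates within the cell.

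RNA depth in genes ran from 18376770 to 26312895 counts, and depth in ATAC-seq elements from 1062403 to 5770075 counts, lowest in the double-sorted green cones. Nrl RNA was 13375, 18906 and 16605 normalized counts in the rod libraries and 751, 869 and 541 in the blue cone libraries. Normalized counts are counts per gene scaled by TMM to a common library size. The 6 rod markers summed to between 1672550 and 2362540 normalized counts in rods and between 6172 and 8232 in blue cones. The 7 cone markers summed to between 12412 and 12641 in rods and between 1718800 and 1963050 in blue cones. The 11 Müller glia markers summed to 2538 to 4136 in rods and 15951 to 19757 in blue cones, where Clu and Apoe were higher, and the other 9 passed in neither direction and summed to 1410 to 2205 and 1023 to 1414. Their median log2 fold change of rods over blue cones was 0.23. The 8 bipolar markers summed to 1817 to 2484 in rods and 29958 to 34774 in blue cones, of which Cabp5 had 265 to 409 and 28848 to 33489. Prkca of the same list was higher in rods, at 1140, 1236 and 1146 against 222, 205 and 127 (log2 fold change 2.64, edgeR adjusted p = 4.98e-06). Of 9 microglia markers, 8 were tested and 6 were higher in blue cones, with sums of 75.8 to 128 in rods and 499 to 1122 in blue cones. The ganglion cell list summed to 49.8 to 81.8 and 204 to 258, with 2 of 4 tested genes (Pou4f1 and Isl2) higher in blue cones. The amacrine and horizontal cell list summed to 2434 to 2865 and 1574 to 1903, with 1 of 4 tested genes (Onecut2) higher in blue cones. Most of these sums was Slc6a9, itself a solute carrier described here, at 2331 to 2828 in rods and 1489 to 1821 in blue cones. Chat and Slc32a1 of the latter list and Pou4f2 and Thy1 of the ganglion cell list had no count in any library. The part of these other cells in the transporter results was not tested.

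At the abundance threshold, the genes just inside were Slc12a8 with 53 summed counts, Slc27a3 with 54, and Slc3a1 and Slc4a11 with 58 each. Just outside were Slc2a12 with 48, Slc41a2 with 45, Slc5a2 with 43 and Slc12a7 with 41. The filter on low counts kept 185 of the 189 genes and dropped Slc10a1, Slc27a3, Slc2a6 and Slc3a1. A weakly expressed gene could reach the threshold through 1 cell type alone, and such a gene is bound to differ between the cell types. Examples through blue cones are Slc26a4, Slc16a5, Slc44a3, Slc45a3, Slc12a8, Slc25a1, Slc11a1, Slc27a2 and Slc24a3. Examples through rods are Slc22a28, Slc22a29, Slc17a9, Slc37a2, Slc17a4 and Slc25a2. Any other gene with under 50 counts in the lower cell type, such as Slc4a3, Slc2a4, Slc25a13 and Slc22a30, passed the threshold in the same way. All these genes stay in the counts of calls below, but their p-values add no support for a difference.

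The 189 solute carrier genes took 1.10%, 1.03% and 1.13% of all gene counts in the rod libraries and 1.55%, 1.46% and 1.51% in the blue cone libraries. The ranges did not overlap, and the exact permutation test gave p = 0.1 (two-sided, n = 3 each), the smallest value this design allows. These shares leave out the 10 genes set aside, whose sums went the other way. They summed to 55937.6 to 74364.5 normalized counts in rods and 18122.3 to 20184.8 in blue cones. Slc24a1 alone made up 38880.5 to 58580.1 of this in rods and 288.6 to 410 in blue cones. The median log2 fold change of the 9 tested among them was -0.14. The 10 genes with the most counts held 51.6% to 54.7% of the solute carrier counts in rods and 58.3% to 59.7% in blue cones. Per kb of exon, which allows levels to be compared between genes, the same 2 of the 189 genes led in both cell types. Slc25a4, the mitochondrial ADP/ATP carrier of heart, muscle and neurons, stood at 9643 ± 1562 normalized counts per kb in rods and 20993 ± 4486 in blue cones (SD, n = 3). Slc6a6, the taurine transporter, stood at 7504 ± 648 in rods and 10120 ± 781 in blue cones. In rods Slc25a5, a second ADP/ATP carrier, at 7241 ± 1160, lay within 1 SD of Slc6a6, and the copper transporter Slc31a2, at 6288 ± 933, lay within 1 SD of the glutamine transporter Slc38a3, at 6105 ± 639. In blue cones Slc38a3, at 10046 ± 742, came level with Slc6a6. Then followed Slc25a5 at 5547 ± 1372, the mitochondrial phosphate carrier Slc25a3 at 5270 ± 1017 and the glutamate transporter Slc1a7 at 5048 ± 279, whose spreads overlap. The next genes by mean level over both cell types were Slc25a33, a mitochondrial pyrimidine nucleotide carrier, Slc25a11, the oxoglutarate carrier, and Slc25a17, the peroxisomal member of the mitochondrial family. Of these 10 most abundant genes, Slc1a7 alone passed the test between cell types, and none of the 10 passed on the rod side.

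Among the 185 tested genes, 16 were higher in rods and 33 were higher in blue cones by more than 2-fold (edgeR, adjusted p under 0.05 against a log2 fold change of 1). That is 8.65% in rods, where the whole table gave 6.88%, and 17.8% in blue cones, where the whole table gave 13.3%. The median log2 fold change of rods over blue cones was -0.12 over the solute carriers and 0.01 over all 12327 genes tested. The remaining 136 genes passed in neither direction, which does not make their levels equal between the cell types. In sorted bulk samples, fewer cells of a type and less RNA per cell cannot be told apart. By class, amino acid and peptide transporters had 10 of 25 tested genes higher in blue cones and 1 higher in rods, with a median log2 fold change of -0.74. Ion, bicarbonate and phosphate transporters had 8 of 30 higher in blue cones and 3 higher in rods. Vitamin, choline and organic ion transporters had 3 of 19 higher in rods and 2 higher in blue cones, with a median of 0.59. Mitochondrial carriers had 2 of 38 higher in rods and 3 higher in blue cones, with a median of 0.06. Leaving out the 5 genes that are not transporters by name gave 16 and 32 calls among 180.

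**Figure D1:**
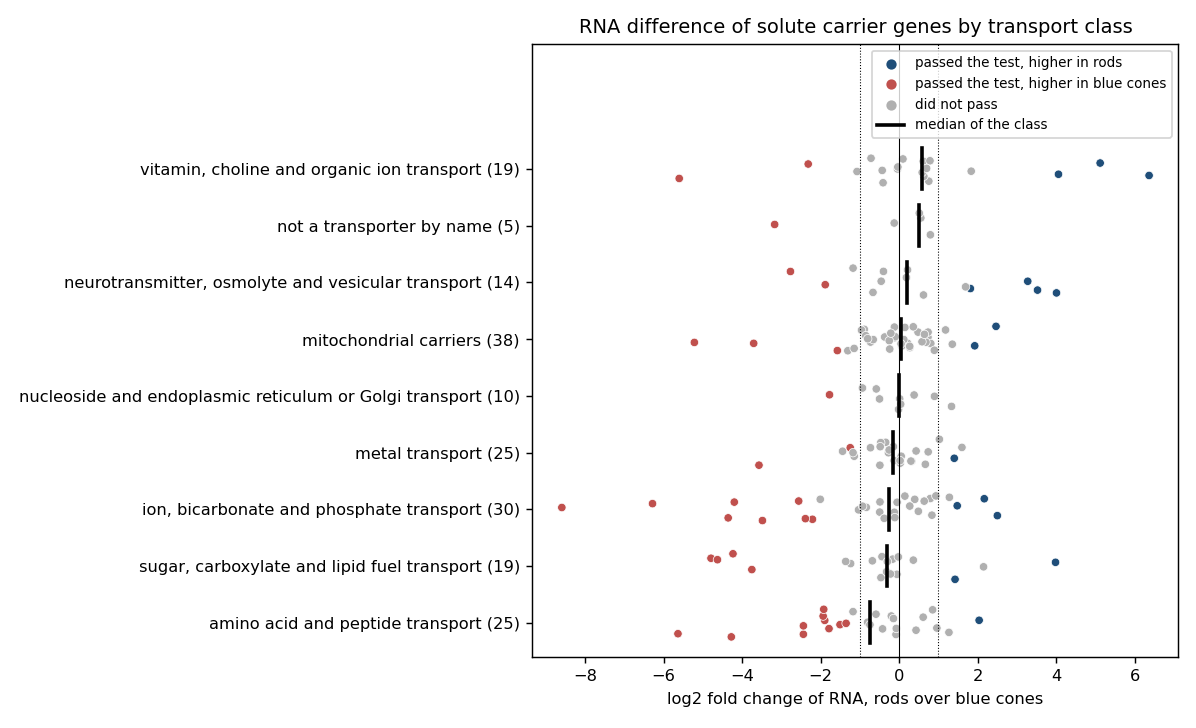
Log2 fold changes of rods over blue cones (horizontal axis) for each tested solute carrier gene, 1 point per gene, by transport class (vertical axis); filled colors mark genes past the edgeR test. The amino acid class has 10 of its 25 points called on the blue cone side and 1 on the rod side, while 33 of the 38 mitochondrial carriers passed in neither direction. Over all tested genes, 13.3% were called on the blue cone side and 6.88% on the rod side.

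For open chromatin, 628 elements of 200 bp had their nearest transcription start site at a solute carrier gene. They lay at 171 of the 189 genes, with up to 19 at a gene, and 608 of them lay within 100 kb of the start site. By place, 178 were in promoters (from 1000 bp upstream to 100 bp downstream of a start site), 228 in introns, 33 in exons and 189 outside the gene. Against blue cones, 33 of 594 tested elements were more open in rods and 92 were more open in blue cones (edgeR, adjusted p under 0.1 against a log2 fold change of 1). These are 5.56% and 15.5%, where all elements gave 6.38% and 21.0%. Without blue cone replicate 2 the 92 elements became 59. Against double-sorted green cones, 48 of 565 tested elements were more open in rods and 79 in green cones, or 8.5% and 14%, where all elements gave 6.43% and 18.7%. This second comparison rests on shallow libraries, and the 48 became 18 without rod replicate 1, 19 without rod replicate 2 and 126 without double-sorted green cone replicate 4, while the 79 became 42 and 41 without rod replicates 1 and 2. Both comparisons share the rod libraries. Introns held 47 of the 92 elements more open in blue cones, and promoters 12. These are 22.3% of the tested intronic and 6.82% of the tested promoter elements. All tested elements gave 21.0%, and all tested promoter elements 8.88%. Accessibility is given as CPM, the count in an element scaled to a fixed total over all elements after TMM scaling.

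In the amino acid class the gene with the widest gap was Slc38a1. This gene, for a sodium-coupled transporter of glutamine and other small neutral amino acids, had 167, 182 and 193 normalized counts in rods and 10494, 7902 and 8077 in blue cones. No rod library came near a blue cone library, and the level was 49.6-fold higher in blue cones (log2 fold change -5.63 ± 0.17 SE, edgeR adjusted p = 2.2e-10). Its relatives lay on both sides. Slc38a10, an intracellular member, had 550, 538 and 680 normalized counts in rods against 2910, 3083 and 3421 in blue cones, a 5.42-fold gap (log2 fold change -2.44 ± 0.13 SE, edgeR adjusted p = 4.87e-07). Slc38a6 went the other way, with 343, 275 and 358 in rods against 101, 74.2 and 57.7 in blue cones (log2 fold change 2.04 ± 0.24 SE, edgeR adjusted p = 0.000722). The most abundant member, Slc38a3, had 14663 to 17950 in rods and 25094 to 28924 in blue cones, and its log2 fold change of -0.74 ± 0.13 (SE) did not pass. Slc38a2, at 1580 to 1849 against 2864 to 2950, did not pass either (-0.80 ± 0.11 SE). Per kb of exon Slc38a1 stood at 21.6 ± 1.56 in rods, below the 363 ± 30.0 of Slc38a2, and at 1052 ± 173 in blue cones, above the 623 ± 9.37 of Slc38a2 (SD, n = 3).

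Slc38a1 spans chr15:96571418-96643438 (GRCm38, minus strand) and had 15 elements. In blue cones 5 of them were more open, and none in rods. The intronic element given next was chosen after its values were seen. The element centered 1461 bp into the gene had no count in either rod library, 9.52 and 5.9 in blue cones, with 7.77 and 8.08 in double-sorted green cones. Against the limit of 3 counts per library, blue cones exceeded rods at least 13.0-fold and green cones at least 13.3-fold. No Slc38a1 element lay in the promoter window.

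Glutamate and neutral amino acid carriers of the Slc1 family had 4 of 5 tested genes higher in blue cones. Slc1a2, the glial and cone glutamate transporter GLT-1, had 4425, 5539 and 5765 normalized counts in rods and 21769, 17992 and 17687 in blue cones. Every blue cone library exceeded every rod library, 3.72-fold higher in the fit (log2 fold change -1.89 ± 0.14 SE, edgeR adjusted p = 4.39e-05). Slc1a7, the photoreceptor and bipolar cell transporter EAAT5, which also conducts chloride, had 4978, 6346 and 6372 in rods and 13953, 15586 and 14830 in blue cones, 2.55-fold higher (log2 fold change -1.35 ± 0.13 SE, edgeR adjusted p = 0.0122). Its call was lost without rod replicate 1 (edgeR adjusted p = 0.0625) and without blue cone replicate 2 (edgeR adjusted p = 0.0522). The neutral amino acid exchangers Slc1a4 and Slc1a5 were both higher in blue cones. Slc1a4 had 43, 37.3 and 34.7 in rods against 224, 256 and 135 in blue cones (edgeR adjusted p = 0.000367), and Slc1a5 had 182, 211 and 224 against 548, 542 and 634 (edgeR adjusted p = 0.00478). Slc1a1, the neuronal transporter EAAC1, overlapped between the groups, at 127 to 246 in rods and 205 to 273 in blue cones. In both cell types Slc1a7 was the highest of the family per kb of exon, at 2013 ± 272 in rods and 5048 ± 279 in blue cones, followed by Slc1a2 at 435 ± 59.5 and 1588 ± 189 (SD, n = 3).

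**Figure D2:**
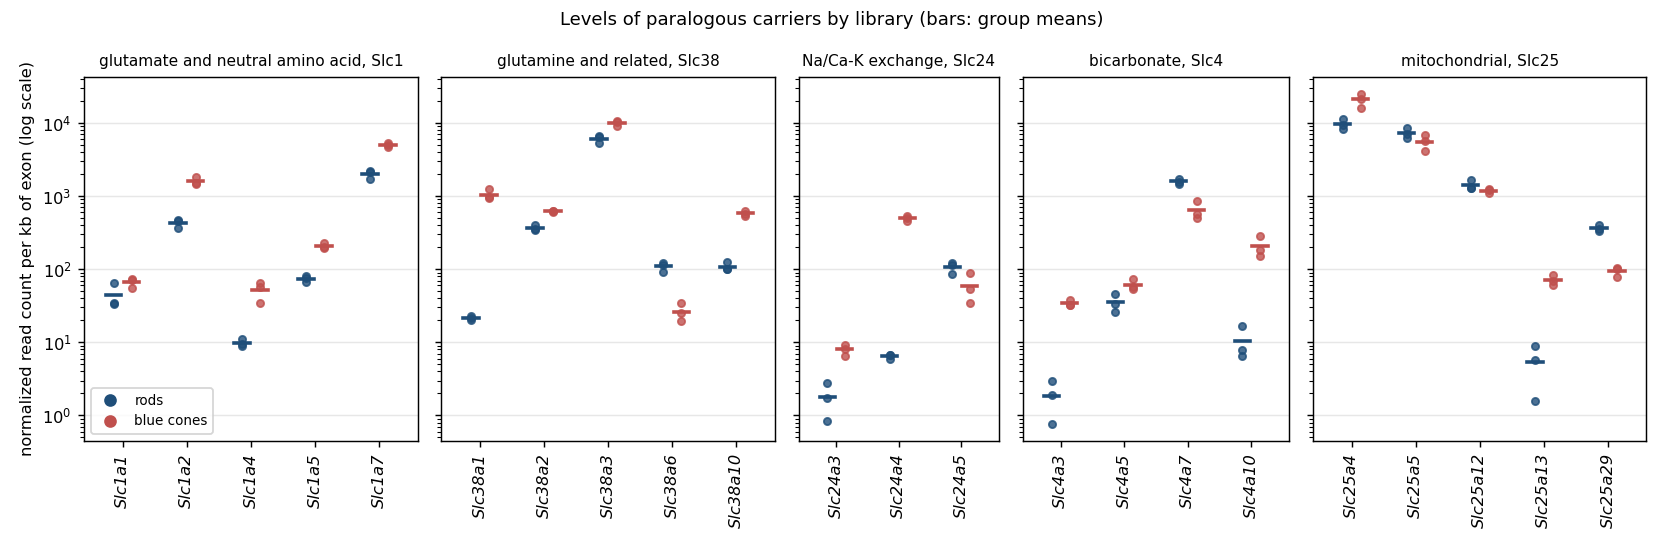
Normalized counts per kb of exon (logarithmic axis) in each of the 3 rod and 3 blue cone RNA-seq libraries for groups of related transporters, 1 point per library with the mean as a bar. Slc1a7 tops its family in both cell types, and Slc38a1 lies below Slc38a2 in rods and above it in blue cones.

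Accessibility at the Slc1 genes did not always follow the RNA. Slc1a2 had an upstream promoter element centered 243 bp before its start site at CPM values of 3.12 and 4.14 in rods, 15.3 and 9.99 in blue cones, with 35.8 and 34.1 in double-sorted green cones. It was called against both cone types (edgeR adjusted p = 0.04 for blue and 0.0025 for green cones), and the call against blue cones was lost without rod replicate 1 (edgeR adjusted p = 0.155), without blue cone replicate 1 (edgeR adjusted p = 0.241) and under DESeq2 (adjusted p = 0.572). A second promoter element of the gene, 91 bp into it, did not pass, at CPM values of 65.4 and 73.4 in rods against 65.8 and 62.4 in blue cones. Of the 6 elements at Slc1a7, 1 was more open in blue cones than in rods, the side of its RNA. Against double-sorted green cones, 2 were more open in the green cones and 1 in rods. The element 2653 bp upstream of Slc1a7 went against its RNA, with CPM values of 51 and 55.7 in rods, 9.11 and 6.36 in blue cones, with 10.1 and 4.49 in double-sorted green cones (log2 fold change of rods over blue cones 2.83 ± 0.23 SE, edgeR adjusted p = 8.5e-09). It is the 1 element more open in rods among 141 tested elements of the genes with higher RNA in blue cones. It is shown from RefSeq GRCm38.p6 on the plus strand, outside the gene at chr4:107965654-107965853, with capitals on AGGTCA, a nuclear receptor half-site searched by its letters on both strands.
Slc1a7 element: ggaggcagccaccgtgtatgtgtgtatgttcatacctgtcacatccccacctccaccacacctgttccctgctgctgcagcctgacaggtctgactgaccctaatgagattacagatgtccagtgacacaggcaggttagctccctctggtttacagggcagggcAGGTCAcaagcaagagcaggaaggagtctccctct

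Heteromeric exchangers and cationic amino acid carriers of the Slc7 family had 3 of 7 tested carriers higher in blue cones and none in rods. Slc7a4, a member of the cationic amino acid branch without a settled substrate, had 213, 91 and 169 normalized counts in rods and 2897, 2983 and 3118 in blue cones. The 19.3-fold gap (log2 fold change -4.27 ± 0.24 SE, edgeR adjusted p = 7.58e-08) exceeded the spread within either group. Its promoter element, 28 bp before the start site, had CPM values of 2.5 and 4.9 in rods and 14.1 and 14.3 in blue cones (edgeR adjusted p = 0.013), a call lost without rod replicate 1 (edgeR adjusted p = 0.152) and under DESeq2 (adjusted p = 0.307). In double-sorted green cones it had CPM values of 3.11 and 8.98, which did not pass against rods. Slc7a5, the large neutral amino acid transporter LAT1, had 59.9, 57.2 and 60.8 in rods and 185, 181 and 297 in blue cones (log2 fold change -1.92 ± 0.26 SE, edgeR adjusted p = 0.00267). Its partner chain Slc3a2 overlapped, at 2470 to 3021 in rods and 2961 to 4080 in blue cones.

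Among transporters of neurotransmitters, osmolytes and vesicle contents, 4 of 14 tested genes were higher in rods and 2 in blue cones, and the 4 all belong to the Slc17 family of anion and phosphate carriers. Slc17a3 had 157, 233 and 184 normalized counts in rods and 17.2, 28.5 and 3.3 in blue cones, an 11.5-fold gap (log2 fold change 3.53 ± 0.48 SE, edgeR adjusted p = 0.000398). Slc17a1 had 457, 436 and 536 in rods and 132, 111 and 155 in blue cones (3.52-fold, edgeR adjusted p = 0.000587). Slc17a4 had 85.9, 78.2 and 67 in rods and 18, 5.17 and 0 in blue cones (log2 fold change 3.28 ± 0.71 SE, edgeR adjusted p = 0.0111). These 3 genes, known from urate and phosphate handling in kidney and gut, lie side by side on chromosome 13 with Slc17a2, which passed in neither direction, between 23806941 and 23915009 (GRCm38). Slc17a9, the vesicular ATP transporter, lies elsewhere and had 61.1, 28 and 42.2 in rods against 5.16, 2.59 and 0 in blue cones (edgeR adjusted p = 0.00226).

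Slc6a6, which supplies photoreceptors with taurine, was high in both cell types, with 41704, 48163 and 49008 normalized counts in rods and 65730, 56901 and 64654 in blue cones. The groups did not overlap, but the log2 fold change of -0.46 ± 0.13 (SE) did not pass. Slc6a8, the creatine transporter, had 135, 133 and 175 in rods and 1130, 936 and 893 in blue cones, 6.81-fold higher (log2 fold change -2.77 ± 0.17 SE, edgeR adjusted p = 8.62e-07). The glycine transporter Slc6a9, also a marker of amacrine cells, had 2331 to 2828 in rods and 1489 to 1821 in blue cones and did not pass (0.62 ± 0.12 SE). The vesicular monoamine transporter Slc18a2, named after its values were seen, was higher in blue cones at 8365, 8111 and 7573 against 1991, 2202 and 2447 (log2 fold change -1.88 ± 0.12 SE, edgeR adjusted p = 1.07e-05).

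Among the 189 genes kept, and with a mean of at least 100 normalized counts in the higher group, the largest gap was in a calcium exchanger. Slc24a4, a potassium-dependent sodium-calcium exchanger that restores calcium after odor responses in olfactory neurons, had 21.5, 18.7 and 21.1 normalized counts in rods and 1572, 1459 and 1680 in blue cones. All blue cone libraries lay far above all rod libraries, 77.8-fold higher in the fit (log2 fold change -6.28 ± 0.17 SE, edgeR adjusted p = 1.1e-10). Its relative Slc24a3 was low in both, at 3.39, 7 and 11.2 in rods and 33.5, 26.7 and 37.9 in blue cones (log2 fold change -2.21 ± 0.51 SE, edgeR adjusted p = 0.0285), and lost the call without rod replicate 1, rod replicate 2 or blue cone replicate 3 (edgeR adjusted p = 0.148, 0.106 and 0.068) and under DESeq2 (adjusted p = 0.328). Slc24a5, which acts in pigment organelles, had 168, 223 and 238 in rods and 174, 67.3 and 105 in blue cones and did not pass. Since 36.6% of its exon length overlaps Myef2, its counts are uncertain in this library type without strand. Slc8a3, a potassium-independent sodium-calcium exchanger named after its values were seen, had 746, 811 and 790 in rods and 3867, 4197 and 4012 in blue cones (log2 fold change -2.39 ± 0.11 SE, edgeR adjusted p = 1.17e-07). Its relative Slc8a1 was low and overlapped, at 2.33 to 13.6 in rods and 9.45 to 47.8 in blue cones.

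Slc24a4 (chr12:102128727-102267133) had 10 elements; 6 of them were more open in blue cones and none in rods. The promoter element, centered 48 bp before the start site, had CPM values of 0.833 and 1.13 in rods, 19 and 16.8 in blue cones, 21.8 and 22.5 in double-sorted green cones and 8.55 and 16.4 in single-sorted green cones. The rod libraries lay below all 6 cone libraries (log2 fold change of rods over blue cones -4.15 ± 0.46 SE, edgeR adjusted p = 2.1e-07, and of rods over double-sorted green cones -4.45 ± 0.54 SE, edgeR adjusted p = 0.0022). Its sequence (chr12:102128580-102128779, RefSeq GRCm38.p6, plus strand) is shown because promoter and RNA differed together, and it holds none of the 4 motifs searched, so no letters are capitalized.
Slc24a4 promoter element: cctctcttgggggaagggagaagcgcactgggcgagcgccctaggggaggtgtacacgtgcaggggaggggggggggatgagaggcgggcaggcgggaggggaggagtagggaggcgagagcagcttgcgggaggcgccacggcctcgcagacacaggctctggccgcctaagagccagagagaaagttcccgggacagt

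Bicarbonate carriers of the Slc4 family control intracellular pH and chloride, and 2 of 7 tested carriers were higher in blue cones. Slc4a10, a sodium-driven bicarbonate transporter of neurons, had 37.3, 45.5 and 96.7 normalized counts in rods and 1625, 1069 and 890 in blue cones, 20.4-fold higher (log2 fold change -4.35 ± 0.33 SE, edgeR adjusted p = 1.69e-06). Slc4a3, the anion exchanger AE3, had 13.6, 3.5 and 8.68 in rods and 174, 150 and 148 in blue cones (18.4-fold, log2 fold change -4.20 ± 0.39 SE, edgeR adjusted p = 1.09e-05). In both genes the groups were far apart. Slc4a7, a sodium bicarbonate cotransporter of photoreceptor terminals, was the highest of the 3 per kb of exon in both cell types, at 1595 ± 130 in rods and 645 ± 194 in blue cones (SD, n = 3). It had 12501, 11683 and 13736 in rods and 6848, 4553 and 3923 in blue cones. Its groups did not overlap, but the log2 fold change of 1.28 ± 0.19 (SE) missed the threshold (edgeR adjusted p = 0.103), and without blue cone replicate 1 it passed (edgeR adjusted p = 0.000478). Slc4a5 stood at 134 to 236 in rods and 279 to 377 in blue cones and did not pass.

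All 6 elements at Slc4a10 (chr2:62046472-62326743) were more open in blue cones than in rods, and 5 of them were more open in double-sorted green cones. The strongest, centered 1835 bp into the gene, had CPM values of 0 and 1.13 in rods, 53 and 62 in blue cones, 43.5 and 52.1 in double-sorted green cones and 34.4 and 34.2 in single-sorted green cones. No cone library fell near the rods (log2 fold change of rods over blue cones -6.56 ± 0.37 SE, edgeR adjusted p = 1.9e-14, and of rods over double-sorted green cones -6.27 ± 0.65 SE, edgeR adjusted p = 0.0012). A neighbor 1404 bp into the gene had CPM values of 0.417 and 0.377 in rods and 28.6 and 25.9 in blue cones. The element 47074 bp into the gene had 2 counts in rods and 93 in blue cones, a ratio of 68.9 with a 95% counting interval of 18.6 to 578. The promoter element itself, at CPM values of 1.67 and 0.377 in rods and 10.3 and 12 in blue cones, differed less (log2 fold change -3.48 ± 0.56 SE, edgeR adjusted p = 9.7e-05). The first of these elements (chr2:62048251-62048450, intronic, RefSeq GRCm38.p6, plus strand) had the lowest adjusted p of any element at these genes on the blue cone side, and it holds none of the 4 motifs.
Slc4a10 intronic element: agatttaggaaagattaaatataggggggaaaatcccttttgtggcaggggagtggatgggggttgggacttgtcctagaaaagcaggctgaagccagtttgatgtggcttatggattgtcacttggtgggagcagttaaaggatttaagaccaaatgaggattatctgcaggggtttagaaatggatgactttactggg

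At Slc4a3 the promoter element, 43 bp into the gene, had CPM values of 2.29 and 4.9 in rods, 25.7 and 22.9 in blue cones, with 19.4 and 35 in double-sorted green cones (log2 fold change of rods over blue cones -2.73 ± 0.33 SE, edgeR adjusted p = 1.3e-05). At Slc4a7 neither promoter element passed, at CPM values of 73.3 and 70.4 in rods against 78.7 and 69.7 in blue cones for the first and 82.9 and 79.5 against 64.2 and 55.2 for the second.

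In the Slc26 family of sulfate and other anion carriers, 2 of 5 tested genes were higher in rods, 1 was higher in blue cones and 2 passed in neither direction. Slc26a2, the sulfate transporter needed for proteoglycan sulfation, had 2522, 2164 and 2354 normalized counts in rods and 454, 369 and 397 in blue cones, 5.67-fold higher in rods (log2 fold change 2.50 ± 0.13 SE, edgeR adjusted p = 2.81e-07). Slc26a11, a lysosomal and plasma membrane anion carrier, had 469, 517 and 525 in rods and 126, 81.1 and 122 in blue cones (4.5-fold, edgeR adjusted p = 7.19e-05). Both groups of libraries were tight. Slc26a4, the iodide and chloride exchanger pendrin, had no count in any rod library and 36.1, 72.4 and 33 in blue cones, at least 13.3-fold higher against the limit of 3 counts per library (edgeR adjusted p = 0.000186). It reached the abundance threshold through blue cones alone. The promoter element of Slc26a2 had CPM values of 133 and 152 in rods against 101 and 93.3 in blue cones and was not called (log2 fold change 0.55 ± 0.11 SE).

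The chloride cotransporters that set the response to inhibitory transmitters passed in no case among those named. Slc12a5, the neuronal chloride extruder KCC2, had 1173 to 1311 in rods against 1613 to 1789 in blue cones, and Slc12a2, the chloride importer NKCC1, had 237 to 311 against 131 to 291. Slc9a5, a neuronal sodium-proton exchanger, was higher in rods at 486, 466 and 490 against 192, 175 and 141 (log2 fold change 1.48 ± 0.17 SE, edgeR adjusted p = 0.00941), a call lost under DESeq2 (adjusted p = 0.0983).

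**Figure D3:**
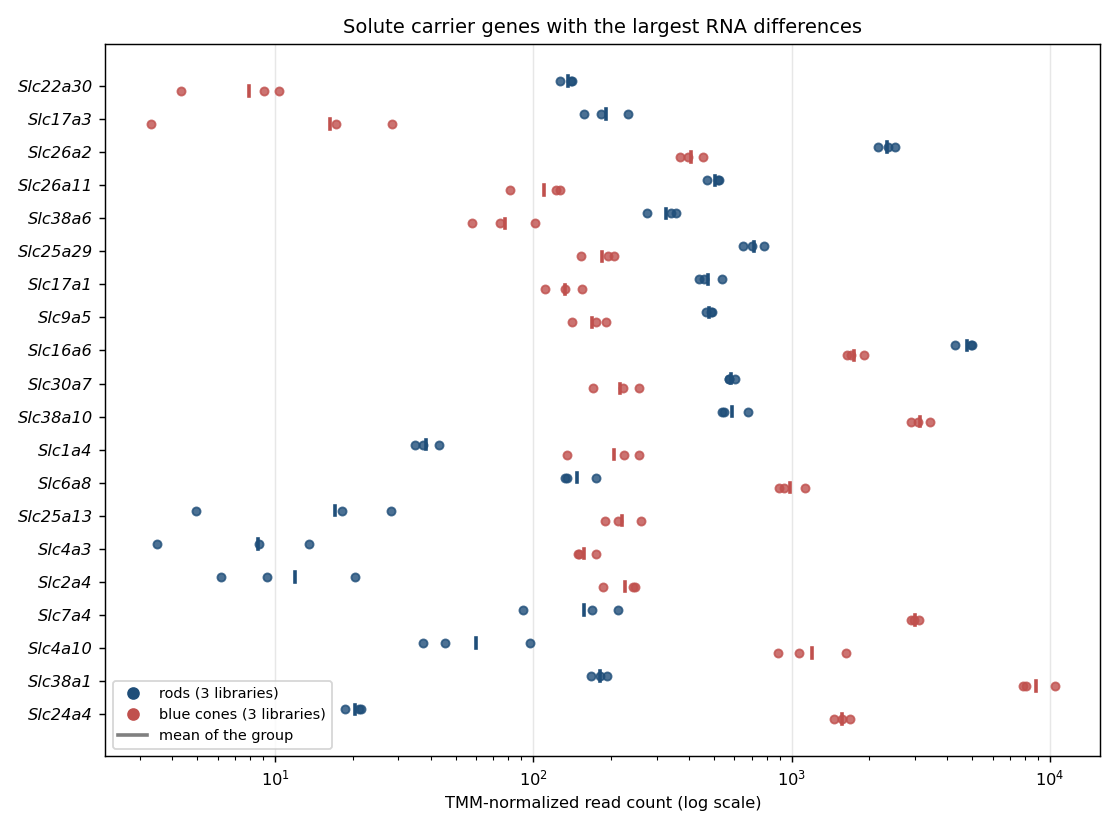
Normalized counts (logarithmic axis) in each of the 3 rod and 3 blue cone RNA-seq libraries for the 10 solute carrier genes with the largest fold changes in each direction among called genes whose groups did not overlap and whose mean was at least 100 normalized counts in the higher group, 1 point per library with the group mean as a bar. Slc24a4 and Slc38a1 show the widest gaps.

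Fuel transport held calls on both sides, 4 of 19 tested genes in blue cones and 2 in rods. Slc2a4, the insulin-regulated glucose transporter GLUT4, had 20.4, 9.33 and 6.2 normalized counts in rods and 242, 248 and 186 in blue cones (18.8-fold, log2 fold change -4.23 ± 0.36 SE, edgeR adjusted p = 5.48e-06). None of its 3 promoter elements passed, and the nearest, 64 bp before the start site, had CPM values of 25 and 29.4 in rods and 24 and 24.7 in blue cones. Slc37a2, a sugar phosphate exchanger, was higher in rods at 85.9, 58.3 and 80.6 against 5.16, 6.9 and 1.65 (15.8-fold, edgeR adjusted p = 0.000155). Slc16a6, a member of the monocarboxylate transporter family that carries ketone bodies in liver, was also higher in rods, with 4312, 5007 and 4967 against 1697, 1900 and 1633 (2.69-fold, edgeR adjusted p = 0.00234). Of its exon length 34.0% overlaps other genes, mainly Gm45916, so part of its counts is uncertain. Slc16a5, another member of that family, had 1 count in each rod library and 65.3, 20.7 and 19.8 normalized counts in blue cones, a ratio of 29.8 with a 95% counting interval of 9.96 to 146 (edgeR adjusted p = 0.00125). Slc45a3 had 3.39, 0 and 1.24 in rods and 33.5, 46.6 and 42.9 in blue cones (edgeR adjusted p = 0.000463).

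Slc16a6 had an element more open in rods. It lies in an intron 1487 bp into the gene and had CPM values of 37.1 and 35 in rods, 4.97 and 4.09 in blue cones, 3.11 and 5.39 in double-sorted green cones and 12.7 and 6.38 in single-sorted green cones (log2 fold change of rods over blue cones 3.01 ± 0.28 SE, edgeR adjusted p = 7.4e-08). Its promoter element 11 bp into the gene did not pass, at CPM values of 61.4 and 59.5 against 48.4 and 50.4. The intronic element is shown as a rod-side element at a gene that was also higher in rods, from RefSeq GRCm38.p6 on the plus strand, at chr11:109471250-109471449. Capitals mark GTCAGCA, the minus-strand reading of TGCTGAC (a MAF half-site).
Slc16a6 intronic element: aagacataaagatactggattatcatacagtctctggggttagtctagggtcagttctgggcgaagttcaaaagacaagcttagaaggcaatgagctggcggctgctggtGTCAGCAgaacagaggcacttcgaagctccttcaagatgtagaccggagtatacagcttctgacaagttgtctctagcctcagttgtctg

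Mitochondrial carriers of the Slc25 family were the largest class. Of its 38 tested genes, 5.26% were higher in rods and 7.89% in blue cones, beside 6.88% and 13.3% of all tested genes. Slc25a13, the aspartate-glutamate carrier citrin, had 18.1, 28 and 4.96 normalized counts in rods and 261, 213 and 190 in blue cones, a 13.0-fold gap (log2 fold change -3.70 ± 0.40 SE, edgeR adjusted p = 5.79e-05). Its close relative Slc25a12, the neuronal aspartate-glutamate carrier, had 4011, 5244 and 4033 in rods and 3491, 3832 and 3897 in blue cones, which did not overlap but lay close together and did not pass (log2 fold change 0.22 ± 0.13 SE). Per kb of exon Slc25a12 stood at 1406 ± 224 in rods and 1187 ± 69.2 in blue cones, against 5.45 ± 3.70 and 70.9 ± 11.7 for Slc25a13 (SD, n = 3). The citrate carrier Slc25a1 had 1.13, 4.67 and 0 in rods and 57.6, 89.7 and 80.8 in blue cones (log2 fold change -5.21 ± 0.63 SE, edgeR adjusted p = 8.64e-05). On the rod side, Slc25a29, a basic amino acid carrier, had 785, 650 and 706 in rods and 195, 154 and 204 in blue cones (3.8-fold, edgeR adjusted p = 9.65e-05), and Slc25a2, an ornithine carrier, had 47.5, 26.8 and 52.1 against 9.45, 8.62 and 4.12 (edgeR adjusted p = 0.0107, but 0.0562 without rod replicate 1, 0.0625 without rod replicate 3 and, by DESeq2, 0.103). The ADP/ATP carrier Slc25a4 had 10887, 15030 and 12617 in rods and 21692, 28605 and 33591 in blue cones, without overlap but short of the threshold (log2 fold change -1.14 ± 0.17 SE, edgeR adjusted p = 0.285). Slc25a5, at 7969 to 10958 against 5378 to 8930, overlapped.

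All 4 elements at Slc25a13 were more open in blue cones. Its promoter element, 3 bp into the gene, had CPM values of 2.71 and 1.13 in rods, 18.2 and 16.6 in blue cones, with 29.5 and 12.6 in double-sorted green cones (log2 fold change of rods over blue cones -3.19 ± 0.42 SE, edgeR adjusted p = 1.4e-05). At Slc25a12 an intronic element 77465 bp into the gene was more open in cones although the RNA did not pass, with CPM values of 2.5 and 2.64 in rods, 24.8 and 31.6 in blue cones, 19.4 and 16.2 in double-sorted green cones and 23.2 and 19.6 in single-sorted green cones (log2 fold change of rods over blue cones -3.47 ± 0.32 SE, edgeR adjusted p = 2.3e-08). It is shown as a cone-open element at a gene whose RNA did not pass, and capitals mark CTAATCC, the letters searched for the homeodomain factor CRX (chr2:71290191-71290390, RefSeq GRCm38.p6, plus strand).
Slc25a12 intronic element: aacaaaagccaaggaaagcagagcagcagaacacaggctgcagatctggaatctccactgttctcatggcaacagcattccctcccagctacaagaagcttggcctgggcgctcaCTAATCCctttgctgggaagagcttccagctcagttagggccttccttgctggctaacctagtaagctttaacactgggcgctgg
The element 5090 bp into Slc25a44, a mitochondrial branched-chain amino acid carrier, was more open in rods, at CPM values of 17.9 and 27.9 against 1.66 and 1.82 in blue cones (edgeR adjusted p = 3.7e-07).

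Organic anion transporters of the Slc22 family had 3 of 6 tested genes higher in rods and 1 (Slc22a17) higher in blue cones (log2 fold change -2.31, edgeR adjusted p = 8.55e-05). The 3 higher in rods are neighbors on chromosome 19 between 8061958 and 8405111 (GRCm38). Slc22a30 had 140, 127 and 141 normalized counts in rods and 10.3, 4.31 and 9.07 in blue cones (16.7-fold, log2 fold change 4.06 ± 0.37 SE, edgeR adjusted p = 9.27e-06). Slc22a29 had 83.7, 89.8 and 110 in rods and 4.3, 2.59 and 0.825 in blue cones (34.8-fold, edgeR adjusted p = 1.18e-05). Slc22a28 had 30.5, 84 and 58.3 in rods and 2 counts in all blue cone libraries, a ratio of 101 with a 95% counting interval of 27.5 to 844 (edgeR adjusted p = 0.000119). These are closely related copies, and reads that fit more than 1 of them could have been lost or divided, so the level of each copy is uncertain. Accessibility at the start of Slc22a30, 419 bp upstream, was 24.2 and 20.3 in rods and 14.1 and 12.5 in blue cones, which did not pass. In double-sorted green cones it had no count in either library, at least 8.85-fold lower than in rods against the limit of 3 counts per library, while single-sorted green cones had CPM values of 8.79 and 5.47. Slc44a3, a choline transporter-like protein, was higher in blue cones, with 3 counts in all rod libraries and 60.2, 59.5 and 66.8 normalized counts in blue cones, a ratio of 52.8 with a 95% counting interval of 17.8 to 258 (edgeR adjusted p = 4.04e-05).

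Of 25 tested metal transporters, 1 (4%) was higher in rods and 2 (8%) in blue cones, beside 6.88% and 13.3% of all tested genes. Slc30a7, which loads zinc into the Golgi, was higher in rods at 572, 606 and 574 against 256, 171 and 223 (log2 fold change 1.41 ± 0.17 SE, edgeR adjusted p = 0.0234, but 0.053 without rod replicate 2, 0.115 without blue cone replicate 2 and, by DESeq2, 0.262). Slc39a6, a plasma membrane zinc importer, was higher in blue cones at 1496, 1572 and 1504 against 624, 604 and 734 (log2 fold change -1.24 ± 0.12 SE, edgeR adjusted p = 0.0439), a call lost without rod replicate 1, rod replicate 2, blue cone replicate 2 or blue cone replicate 3 (edgeR adjusted p from 0.0515 to 0.174) and in 3 other alternatives. Slc11a1, a divalent metal transporter of macrophage phagosomes, had 1.13, 4.67 and 3.72 in rods and 49.8, 14.7 and 49.5 in blue cones (log2 fold change -3.57 ± 0.68 SE, edgeR adjusted p = 0.00463), and the part of the microglia markers given above in this was not tested. The copper transporter Slc31a2 had 14330, 10938 and 11498 in rods and 5720, 6583 and 5450 in blue cones, without overlap but not past the threshold (log2 fold change 1.03 ± 0.14 SE, edgeR adjusted p = 0.636). The heme transporter Slc48a1 leaned the other way, at 695 to 953 against 1703 to 2031 (edgeR adjusted p = 0.157), and the iron exporter Slc40a1 overlapped, at 101 to 159 against 74.8 to 122.

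Nucleoside and Golgi transporters gave 1 call among 10 tested genes. Slc29a3, a lysosomal nucleoside transporter, had 109, 113 and 89.3 in rods and 476, 301 and 268 in blue cones (log2 fold change -1.77 ± 0.24 SE, edgeR adjusted p = 0.00569). The 5 Slc35 genes passed in neither direction. Upstream of Slc29a4, a plasma membrane monoamine transporter, an element 20481 bp away was more open in rods, at CPM values of 22.3 and 20.3 against 0 and 0.908 in blue cones (edgeR adjusted p = 1.7e-08). Its sequence holds 16 copies of the repeat CCCTAA, so reads from other copies of the repeat may be counted there. The promoter of Slc2a13, a proton-coupled inositol transporter, was more open in both cone types, at CPM values of 73.7 and 81.5 in blue cones, with 81.6 and 31.4 in double-sorted green cones against 8.96 and 8.85 in rods (edgeR adjusted p = 2.3e-12 against blue cones).

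**Figure D4:**
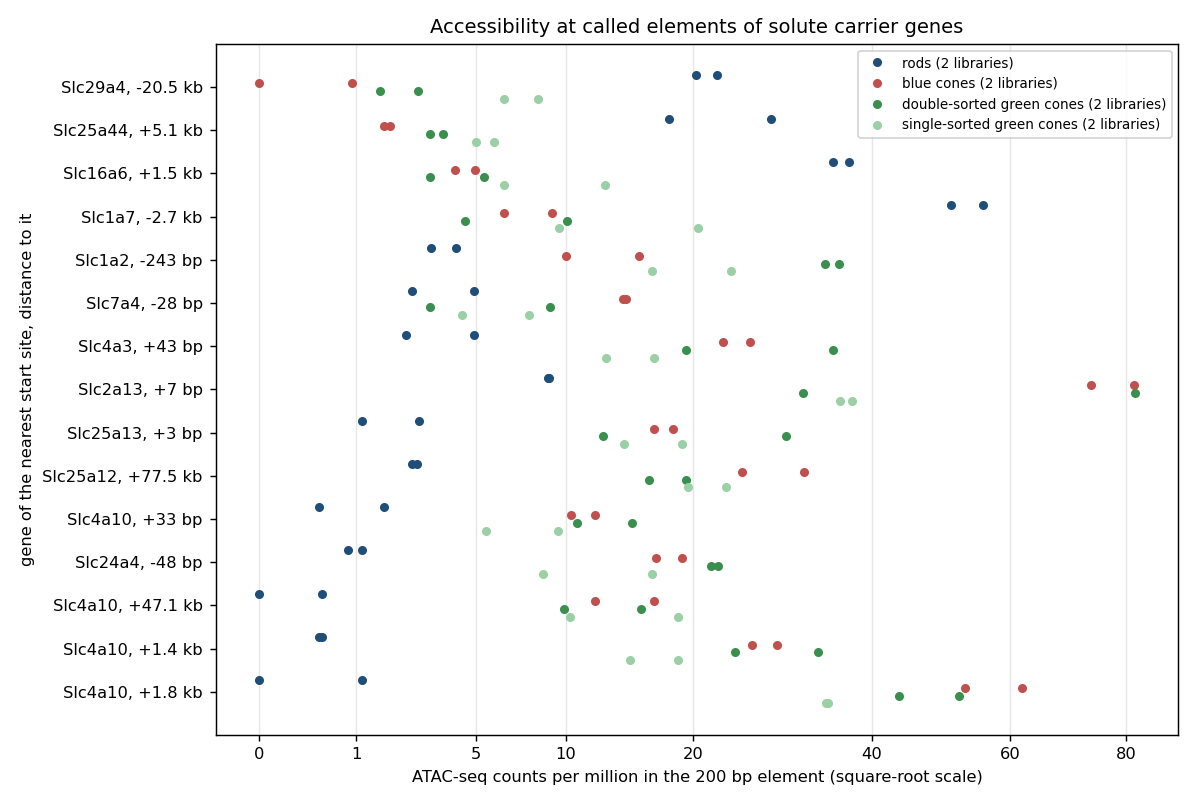
Accessibility in CPM (square-root axis) of single ATAC-seq elements at solute carrier genes in each library of rods, blue cones, double-sorted and single-sorted green cones, 1 point per library. At Slc4a10 and Slc24a4 the rod libraries sit below every cone library, and at Slc1a7 and Slc16a6 they sit above every cone library.

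Elements were counted by the RNA call of their nearest gene. Of the 16 genes with more RNA in rods, elements were found at 15, and 4 (26.7%) had one more open in rods than in blue cones and none had one more open in blue cones, beside 46.9% and 16.8% of the 764 genes of the whole table with an element and this call. Of the 33 genes with more RNA in blue cones, elements were found at 29, and 19 (65.5%) had one more open in blue cones and 1 (3.45%) had one more open in rods, beside 61.5% and 7.2% of 1472 such genes. Of the 136 genes with neither call, elements were found at 124, and 21 (16.9%) had one more open in rods and 29 (23.4%) had one more open in blue cones, beside 14% and 17.2% of 8772. Genes with an element had 2.53, 5.10 and 3.51 elements each in these 3 sets, and a gene with more elements has more chances of a call. Against double-sorted green cones, 8 of the 15 genes in the first set had an element more open in rods and none in green cones. In the second set, 13 of the 29 had one more open in green cones and 3 in rods. Shares over all genes were not computed for this comparison, so these counts cannot be set beside them. The median log2 fold change of rods over blue cones in accessibility was 0.52 over the 38 tested elements of the first set, -0.72 over the 141 of the second and 0.12 over the 408 of the third. Over the 136 genes with a tested promoter element, of which the nearest to the start site was taken, the log2 fold changes of promoter and RNA had Pearson's r of 0.55 and Spearman's rho of 0.36 across genes. Genes are not independent replicates, the points share libraries, and no test was made.

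**Figure D5:**
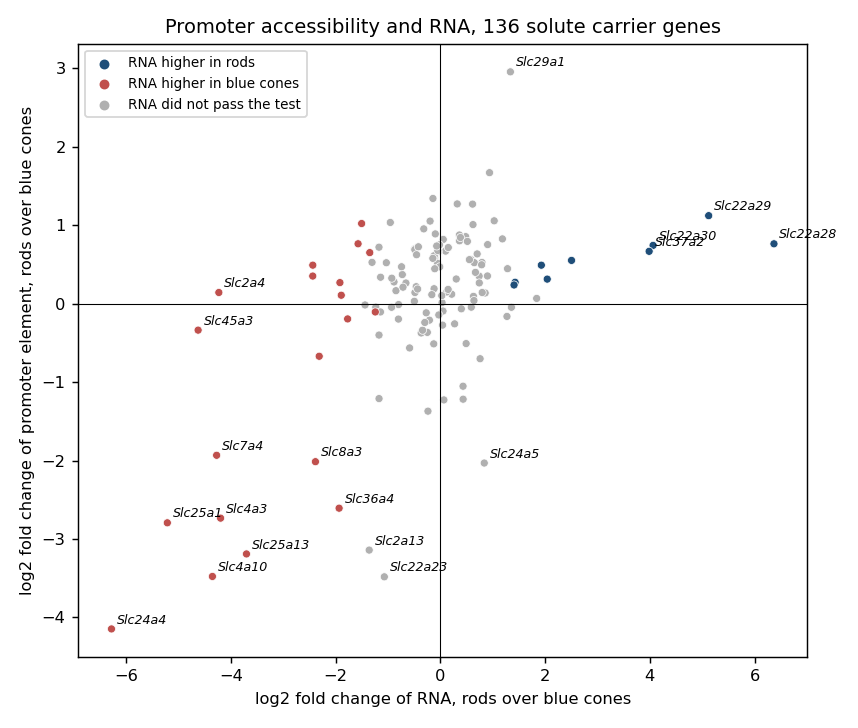
Log2 fold change of promoter accessibility (vertical axis) against log2 fold change of RNA (horizontal axis), rods over blue cones, for the 136 solute carrier genes with a tested promoter element, 1 point per gene. Slc24a4, Slc4a10, Slc25a13 and Slc4a3 lie at the lower left, while most genes have promoter values near 0.

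Of 176 promoter elements tested against blue cones, 5 were more open in rods and 12 in blue cones, and over all 13126 tested promoter elements the shares were 2.98% and 8.88%. Of 172 tested against double-sorted green cones, 12 were more open in rods and 11 in green cones, with shares of 4.54% and 6.61% over all 12796. Slc38a10, for instance, had CPM values of 145 and 139 in rods against 98.9 and 101 in blue cones at its promoter, opposite in sign to its RNA and not called. Among the 4 motifs searched on both strands, AGGTCA occurred in 12 of the 33 elements more open in rods than in blue cones (36.4%), in 14 of the 92 more open in blue cones (15.2%) and in 14.9% of all 53204 elements. CTAATCC occurred in 9.09%, 13.0% and 7.61%, TGCTGAC in 6.06%, 3.26% and 3.98%, and the homeodomain letters TAATTA in 9.09%, 4.35% and 4.71%. These are matches to letters and say nothing of binding.

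Among 39 transporters known from retina, chosen as a list, 31 were members and tested, with 11 higher in blue cones, 1 higher in rods (Slc16a6) and a median log2 fold change of -0.80, beside 13.3% and 6.88% of all tested genes on these sides and a median of 0.01. The other 8 had fewer than 50 counts in all, at most 34 for Slc17a6, and include the vesicular GABA transporter Slc32a1 with 0 and the pigment epithelium lactate transporter Slc16a8 with 12. Of 25 pumps, regulators and accessory subunits that work with these transporters, 22 were tested, 6 were higher in blue cones and 2 in rods, with a median of -0.71, to be read beside the same shares of all genes. Atp1b2, the sodium pump subunit, had 45885, 69154 and 65365 normalized counts in rods and 270226, 321454 and 303025 in blue cones (log2 fold change -2.33, edgeR adjusted p = 9.47e-06), and Bsg, the chaperone of monocarboxylate transporters, had 6637 to 8941 against 16104 to 24462 (edgeR adjusted p = 0.0279, but 0.129 by DESeq2 and 0.057 to 0.125 without rod replicate 1 or 2 or blue cone replicate 2 or 3). The proton pump subunits Atp6v0a1 and Atp6v1b2, the calcium pump Atp2b4 and the transporter partner Emb were also higher in blue cones. The kinases Wnk1 and Stk39, which regulate chloride cotransporters, were higher in rods, at log2 fold changes of 1.33 and 1.32, and both calls were lost under DESeq2 (adjusted p = 0.422 and 0.25). The Wnk1 call was also lost without rod replicate 2 or 3 or blue cone replicate 2 or 3 (edgeR adjusted p from 0.07 to 0.151), and that of Stk39 without rod replicate 2 or blue cone replicate 3 (edgeR adjusted p = 0.052 and 0.0764). Among the genes that are not transporters by name, Slc9a3r2, a scaffold protein, was higher in blue cones and the other 4 passed in neither direction.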

How the data were processed

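RNA-seq libraries came from rods and blue cones (3 each), and ATAC-seq libraries from rods, blue cones and single- and double-sorted green cones (2 each), with groups taken from the labels of the samples. The deposited tables hold raw counts, which the authors made per gene and per 200 bp element. By the study's methods and the submitters' processing notes, the RNA-seq aligner was STAR 2.4.2a and the counter HTSeq 0.6.1p1, on GRCm38. ATAC-seq used Bowtie2 2.2.3 for alignment, SAMtools 1.3 and Picard 1.121 for removing poor and duplicate reads, MACS2 2.1.0 for peaks and bedtools 2.24.0, and HOMER 4.8 is also named. The SMARTer kit does not keep strand. Reads without an assigned gene, 41.3% to 49.2% of each RNA-seq library, were left out, and the deposited peak lists, called on pooled replicates, were not used.

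The whole count tables, scaled by TMM and reduced by filterByExpr, entered the quasi-likelihood fit of edgeR 4.0.16 (R 4.3.3). Its glmTreat test against a log2 fold change of 1 used Benjamini-Hochberg adjustment over all genes (threshold 0.05) or elements (threshold 0.1), without covariates, and fits were tested on simulated data. Elements belong to the gene of the nearest RefSeq start site, and exon lengths and sequences are from RefSeq GRCm38.p6, where all 189 genes were matched. A group with no count is set at 3 counts per library, a limit that covers counting error only, as do the 95% exact binomial intervals. The p-values measure the spread between these libraries, each a pool of mice.

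The genes, classes and lists were chosen with earlier results of these data known. Named genes were the 10 of widest fold change on either side past the test (mean of at least 100 normalized counts in the higher group, no overlap), up to 4 called genes per class, the 10 highest per kb of exon, and 39 retina transporters. Named elements lay in promoters of the first and last of these sets or were the 5 of lowest adjusted p on either side, and other items are marked as chosen after their values were seen. Alternatives were DESeq2 1.42.0, RLE scaling, no filter, a test against no change, a replicate block, single-sorted green cones, elements within 100 kb and leaving out each library. Leaving out the genes that are no transporters was planned as well. Replicate numbers did not pair the libraries. A few named genes and 1 element are not reported here.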

Additional observations from a re-analysis of the deposited data

How the results depend on the processing

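Of 671 recomputed values of 61 named genes, 630 kept their direction and side of the threshold, 20 no longer passed and 19 newly passed. The log2 fold change of Slc25a33, far from the threshold, ranged from -0.22 to 0.11 when libraries were left out and was 0.11 without rod replicate 1 and 0.04 without blue cone replicate 3. A test against no change, which asks less, gave 47 genes higher in rods and 68 higher in blue cones in place of 16 and 33, and 186 and 171 elements more open in rods and blue cones in place of 33 and 92. DESeq2 gave 13 and 27 genes, all among the 49 calls, and 18 and 47 elements against blue cones, and 8 and 32 in place of 48 and 79 against double-sorted green cones. Leaving out single libraries gave 15 to 19 and 29 to 34 genes, 27 to 37 and 59 to 91 elements against blue cones, and 18 to 126 and 41 to 85 against double-sorted green cones. The low ends were without blue cone replicate 2 for the 59 and without rod replicate 1 or 2 for the 18 and 41, and the 126 was without double-sorted green cone replicate 4. Single-sorted green cones gave 22 and 100 elements. With a replicate block the counts were 17 and 32 genes and 34 and 88 elements against blue cones, with Slc39a6 lost and Slc4a7 gained (edgeR adjusted p = 0.0413). The correlations of same-numbered RNA-seq libraries were 0.11, 0.041 and 0.021, and those of the ATAC-seq pairs 0.032. The green cone comparison had no shared numbers. Except where the construction shows it, the cause was not tested. Precision was limited by 2 or 3 libraries a group and by ATAC-seq depth: the median SE of the log2 fold change at promoter elements was 0.16 against blue cones and 0.31 against double-sorted green cones.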

Other observations

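The genes and elements given here were chosen after their values were seen. Several lower-level solute carriers passed on the blue cone side, and of these Slc22a17 alone has its test result given above. Slc7a3, a cationic amino acid transporter, had 89.3, 81.7 and 78.1 normalized counts in rods against 261, 285 and 299 in blue cones (edgeR adjusted p = 0.00103). Slc22a17, a lipocalin receptor by another name, had 63.3, 50.2 and 74.4 against 261, 304 and 355 (edgeR adjusted p = 8.55e-05). Slc36a4, a proton-independent amino acid transporter, had 54.3, 33.8 and 24.8 against 190, 118 and 119 (edgeR adjusted p = 0.0124, but 0.0725 by DESeq2, 0.0588 without rod replicate 3 and 0.0517 without blue cone replicate 1). Its 4 elements all opened further in blue cones than in rods. The promoter element had CPM values of 1.87 and 1.88 in rods and 9.11 and 13.4 in blue cones (edgeR adjusted p = 0.00117). The endosomal exchanger Slc9a9, the ornithine carrier Slc25a15, the fatty acid transporter Slc27a2 and Slc12a8 were also called. The Slc25a15 and Slc12a8 calls were lost under DESeq2 (adjusted p = 0.186 for each). That of Slc25a15 was also lost without rod replicate 2 or 3 or blue cone replicate 1 (edgeR adjusted p from 0.0621 to 0.0924), and that of Slc12a8 without rod replicate 1 or 3 (edgeR adjusted p = 0.0758 and 0.075).

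Slc22a23 and Slc6a6 had called elements while their RNA passed in neither direction. The RNA of Slc24a3 and Slc22a29, given after them, was called higher in blue cones and in rods, respectively. At Slc22a23, whose RNA overlapped at 14 to 26 in rods and 19 to 61 in blue cones, all 4 elements were called on the blue cone side, and its promoter had CPM values of 0.833 and 0.377 in rods, 4.14 and 9.08 in blue cones, with 12.4 and 8.98 in double-sorted green cones. At the taurine transporter Slc6a6 an intronic element 23302 bp into the gene was more open in rods, at CPM values of 50.6 and 48.4 against 12.4 and 14.1 in blue cones (edgeR adjusted p = 0.000119), although RNA was no higher in any rod library. Of the 19 elements at Slc6a6, 2 were more open in rods than in blue cones and 1 was more open in blue cones. At Slc24a3, weak in RNA, an intronic element 39548 bp into the gene had CPM values of 1.25 and 0.753 in rods, 8.28 and 5.9 in blue cones, with 34.2 and 21.6 in double-sorted green cones. The Slc22a29 promoter had CPM values of 40.6 and 36.1 in rods, 14.1 and 19.7 in blue cones, with 0 and 1.8 in double-sorted and 15.1 and 9.12 in single-sorted green cones, and passed against double-sorted green cones (edgeR adjusted p = 0.00243).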
